A study of Mus musculus with 4 samples.

Results

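A set of 10 genes that end or damp second-messenger signals were followed through the first days of fat cell differentiation: the cyclic nucleotide phosphodiesterase genes Pde4a, Pde4b, Pde4d, Pde3a, Pde3b, Pde7a and Pde8a, and the regulator of G protein signalling genes Rgs2, Rgs4 and Rgs16. They were chosen by name, and each is represented by every array probe whose RefSeq accession belongs to it. These 10 genes had 18 probes, out of 20972 genes with a probe on the array. Of the 10, 7 had several probes and 3 had 1, and 9 gave a signal well above background on all 4 arrays.

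Phosphodiesterases split cyclic AMP and cyclic GMP, the messengers made by adenylyl and guanylyl cyclases, and so end their signal. The PDE4, PDE7 and PDE8 enzymes act on cyclic AMP, and the PDE3 enzymes act on cyclic AMP and are held back by cyclic GMP. RGS proteins speed the hydrolysis of GTP by G protein alpha subunits, which shortens the signal of receptors coupled to them. In fat cells cyclic AMP drives lipolysis, and in preadipocytes it activates the transcription factor CREB, which binds the element TGACGTCA or its shorter form TGACG.

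RNA came from 3T3-L1 cells, a mouse embryo fibroblast line committed to become fat cells when given adipogenic hormones. The groups were Lamp2a knockdown cells at day 2, control cells at day 2, Lamp2a knockdown cells at day 0 and control cells at day 0, with 1 array each. LAMP2A is the lysosomal membrane protein through which chaperone-mediated autophagy imports its substrates. Day 0 was confluence in medium with 10% serum, and day 2 followed the addition of 160 nM insulin, 250 nM dexamethasone and 0.5 mM isobutylmethylxanthine. Isobutylmethylxanthine inhibits most phosphodiesterases, with PDE8 among the exceptions, so the products of most of these genes had an inhibitor present at day 2. Day 2 cultures that had no hormones were not among the samples, so time and hormones cannot be told apart, nor can the agents be told from each other. The labels do not say how the knockdown was made or whether the lines are clones.

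Signals are given as scaled signal, where 1000 is the 75th percentile of the array, and a probe is compared only with itself on another array. With 1 array per group nothing here can be set against a spread between cultures, and no test was run. A difference is called higher or lower where it is at least 2-fold. The scanner software's own error was about 10.1% of a signal, or 0.20 on the log2 scale for a ratio of 2 arrays, and it covers spot error only. The share of spots well above background was 78.7% and 84.2% on the knockdown and control arrays of day 2, and 88.6% and 67.4% on the knockdown and control arrays of day 0. Dim genes read low on the control day 0 array, which was also on another slide than the other arrays: the median scaled signal of 1072 olfactory receptor genes lay between 21.6 and 24.1 on the other arrays and was 7.09 there. Every comparison that uses that array therefore crosses slides, and there slide and group cannot be told apart; knockdown against control at day 2, and day 2 against day 0 in knockdown cells, lie within 1 slide. Counts are set beside those of 11394 bright genes, those brighter on average than 95% of the olfactory receptor genes. Pde3a, Pde8a and Rgs4 are not among them.

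The probe of Lamp2 transcript NM_001017959 read lower in knockdown than in control cells, by 3.52-fold on day 2 and by 4.13-fold on day 0, while that of NM_010685 read 1.09-fold and 1.28-fold lower. Of 12 preadipocyte and fibroblast markers, 11 were well above background on all arrays, as were 4 of 7 epithelial markers, while the epithelial marker Epcam was so on none. The summed scaled signal of 10 adipocyte markers was 89074 in knockdown and 79240.1 in control cells at day 2, and 44852 in knockdown and 60508 in control cells at day 0. Lpl and Fabp4 made up most of these sums, and the members went apart. At day 2, 5 of 10 were lower in knockdown cells and 1, Fabp4, higher, beside 4.13% and 2.89% of all genes. The median log2 difference of the 10 was -1.10. Among the lower were Pparg at -1.42 and Cebpa at -1.85. Between the days, 2 of 10 were higher at day 2 in knockdown cells and 9 of 10 in control cells, beside 5% and 20.2% of all genes. In control cells the dim members read low at day 0. Of the 4 bright members, 1 was higher in knockdown cells and 3 in control cells, beside 6.17% and 7.68% of bright genes. Sums over 9 macrophage markers lay between 17915 and 38266, over 8 endothelial markers between 3144.96 and 4246, over 7 epithelial markers between 312 and 921 and over 7 skeletal muscle markers between 791 and 3509. Single genes made up most of several sums. Itgam read 35214 in knockdown cells at day 2 and 14241 in control cells at day 0, the arrays with the largest and smallest macrophage sums. Kdr made up most of the endothelial sums, and Acta1, at 3184, most of the muscle sum in control cells at day 0. The part of these cell states in the values below was not tested. In bulk RNA, fewer cells of a type and less RNA per cell cannot be told apart.

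The promoters shown are those of the 4 genes with the largest differences between the days in knockdown cells, with the first start in the table where a gene has several. The sequences are from RefSeq on build GRCm38.p6, run from 250 bases before to 50 after the start, and are written 5′ to 3′ on the gene's strand. Capitals mark TGACG or, where the motif lies on the other strand, its complement CGTCA.
Rgs2, chr1:144004100-144004399, minus strand: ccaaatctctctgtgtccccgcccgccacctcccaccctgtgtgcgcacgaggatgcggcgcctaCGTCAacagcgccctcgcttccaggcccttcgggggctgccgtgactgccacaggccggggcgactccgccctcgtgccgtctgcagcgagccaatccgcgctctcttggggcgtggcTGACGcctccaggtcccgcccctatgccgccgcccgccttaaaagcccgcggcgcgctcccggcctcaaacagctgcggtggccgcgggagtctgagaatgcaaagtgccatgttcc
Pde4d, chr13:108653927-108654226, plus strand: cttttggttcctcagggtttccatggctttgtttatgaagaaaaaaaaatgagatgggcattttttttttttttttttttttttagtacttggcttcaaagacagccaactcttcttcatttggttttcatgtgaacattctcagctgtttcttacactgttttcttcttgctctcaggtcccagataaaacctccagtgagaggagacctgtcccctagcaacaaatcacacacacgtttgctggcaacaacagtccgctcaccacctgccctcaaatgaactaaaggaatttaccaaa
Pde4b, chr4:102421305-102421604, plus strand: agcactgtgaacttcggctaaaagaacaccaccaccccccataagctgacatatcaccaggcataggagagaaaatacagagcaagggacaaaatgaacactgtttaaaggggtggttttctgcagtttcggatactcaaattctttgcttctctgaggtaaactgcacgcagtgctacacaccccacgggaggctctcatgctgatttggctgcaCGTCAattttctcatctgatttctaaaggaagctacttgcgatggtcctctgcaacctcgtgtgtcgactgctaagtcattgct
Rgs16, chr1:153740103-153740402, plus strand: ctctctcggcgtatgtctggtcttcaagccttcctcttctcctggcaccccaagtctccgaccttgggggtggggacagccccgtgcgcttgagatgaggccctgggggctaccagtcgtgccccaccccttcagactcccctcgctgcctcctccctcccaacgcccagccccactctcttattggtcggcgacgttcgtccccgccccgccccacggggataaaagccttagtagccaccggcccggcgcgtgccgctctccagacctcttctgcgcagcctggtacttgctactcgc

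The Rgs2 promoter holds the short element at 2 places, beginning 185 and 67 bases before the start, and the promoter of the dim gene Rgs4, not shown, also holds 2, at 236 and 141 bases before. The Pde4b start shown, the first of 4 in the table, holds 1 at 34 bases before. The single promoters listed for Pde4d and for Rgs16 hold none, and any other starts of these genes were not searched. In all, the table holds 12 promoters for 7 of the 10 genes, and Pde3a, Pde3b and Pde7a are named only. Of the 12 promoters, 5 hold the short element: those of Rgs2, Rgs4 and Pde8a, 1 of the 4 of Pde4b and 1 of the 3 of Pde4a. Of 32851 promoters of the same length in the table, 20.8% hold TGACG on either strand and 5.01% hold it at least at 2 places. None of the 12 promoters of these 7 genes holds the full element TGACGTCA, which contains the short form. Of all promoters, 1.79% hold it. These matches describe letters in a window and show no binding.

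Pde4b, Pde4d and Rgs2 were many-fold higher at day 2 than at day 0 in both kinds of cell, and Rgs16 was lower. Each of these differences between the days was larger in knockdown than in control cells. Pde3b was higher at day 2 by similar factors in both. Pde4a, Pde7a and Rgs4 differed between the days by less than 2-fold at their brightest probes.

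**Figure D1:**
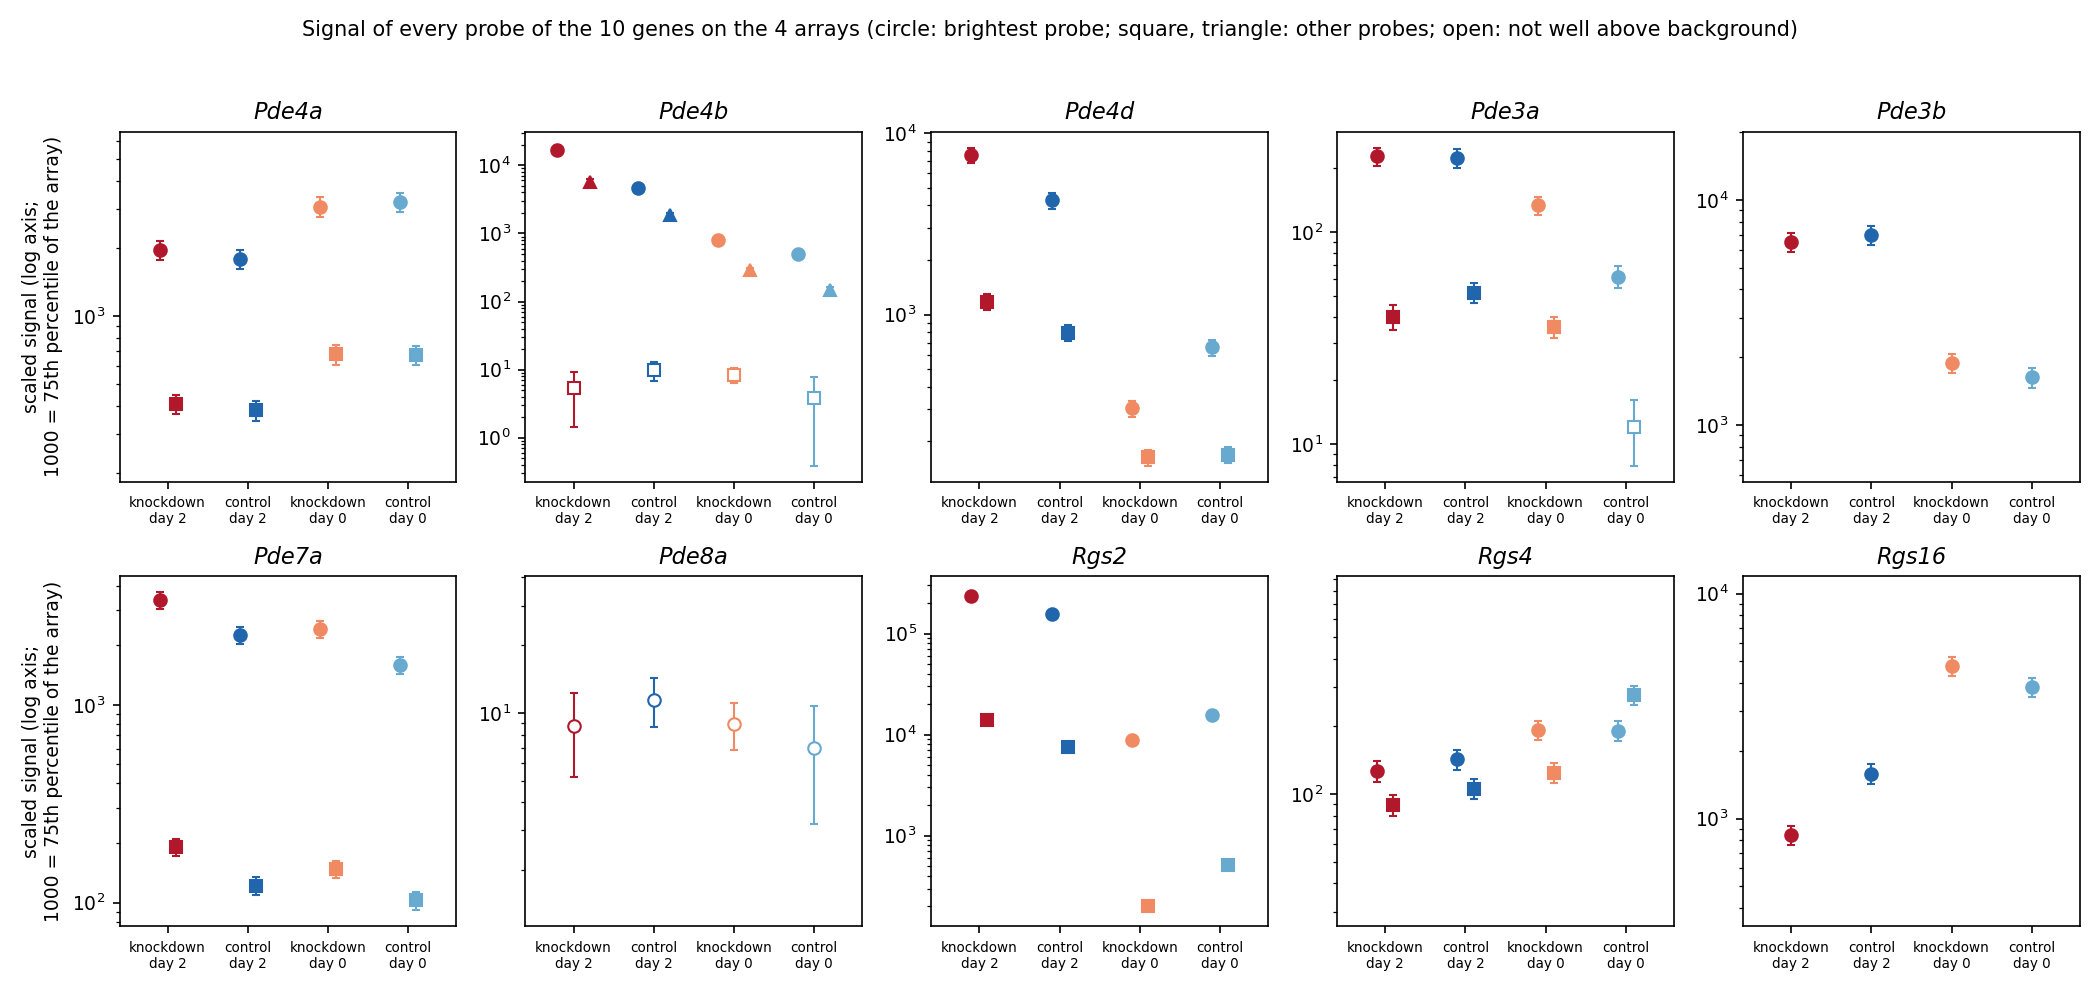
Scaled signal (log axis, 1000 is the 75th percentile of the array) of every probe of the 10 genes on the 4 arrays, with the scanner software's error as bars, cut short where a bar would reach 0. Filled points are well above background and open points are not: Pde4b, Pde4d and Rgs2 sit high on both day 2 arrays, Rgs16 sits high on both day 0 arrays, and Pde8a is open on every array.

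Among the PDE4 genes, Pde4b encodes an enzyme known in immune cells and brain, where its transcription is raised by cyclic AMP. Its brightest probe read 16629 in knockdown cells at day 2, 4629 in control cells at day 2, 792 in knockdown cells at day 0 and 503 in control cells at day 0. The day 2 arrays were above both day 0 arrays, and knockdown was above control on each day. Pde4b was 21.0-fold higher at day 2 than at day 0 in knockdown cells and 9.20-fold higher in control cells. Against control, the knockdown reading was 3.59-fold higher on day 2 and 1.57-fold higher on day 0. Its other measured probe read 5703, 1838, 286 and 147 on the arrays in the same order, with a log2 difference of 1.63 between knockdown and control cells at day 2. The third probe of the gene was not well above background on any array, with signals between 3.87 and 9.92. The files do not say which transcript forms each probe reads.

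Pde4d encodes the PDE4 enzyme with the most known transcript forms. It read 7587 in knockdown cells at day 2, 4257 in control cells at day 2, 304 in knockdown cells at day 0 and 658 in control cells at day 0. Knockdown was the higher at day 2 and the lower at day 0. The gene was 25.0-fold higher at day 2 than at day 0 in knockdown cells and 6.47-fold higher in control cells. The knockdown reading was 1.78-fold above control on day 2 and 2.17-fold below it on day 0. The other probe, of the same accession, read 1175, 795, 163 and 168 in that order. It was 7.21-fold higher at day 2 in knockdown cells and 4.72-fold higher in control cells, and its knockdown reading was 1.48-fold above control on day 2. At day 0 it differed by 1.03-fold between knockdown and control cells, so the lower reading in knockdown cells at day 0 was seen at 1 of 2 probes.

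Pde4a, the third PDE4 gene, went the other way. It read 1966 in knockdown cells at day 2, 1796 in control cells at day 2, 3069 in knockdown cells at day 0 and 3222 in control cells at day 0. Both day 2 arrays were below both day 0 arrays, by 1.56-fold in knockdown cells and 1.79-fold in control cells, and the other probe gave 1.66-fold and 1.76-fold. Knockdown and control differed by 1.09-fold at day 2 and 1.05-fold at day 0, within the software's error. Fold differences between the days among the PDE4 genes therefore ran from 25.0-fold higher for Pde4d to 1.56-fold lower for Pde4a in knockdown cells.

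Pde3b, the enzyme through which insulin lowers cyclic AMP and restrains lipolysis in fat cells, has 1 probe. It read 6512 in knockdown cells at day 2, 6990.4 in control cells at day 2, 1880.3 in knockdown cells at day 0 and 1627 in control cells at day 0. The day 2 arrays were above the day 0 arrays, by 3.46-fold in knockdown cells and 4.30-fold in control cells. Knockdown and control cells differed by 1.07-fold at day 2 and 1.16-fold at day 0, in opposite directions, and neither difference exceeded 2 software errors.

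Pde3a, the PDE3 gene known from heart, platelets and oocytes, was dim. It read 228 in knockdown cells at day 2, 223 in control cells at day 2, 134 in knockdown cells at day 0 and 61.8 in control cells at day 0. The control day 0 array was the lowest, and dim genes in general read low on it. The knockdown day 0 array was also below both day 2 arrays at this probe, by more than 2 software errors. On these values the day 0 level of Pde3a was 2.16-fold higher in the knockdown, and the log2 ratio was 0.28 to 1.34 over the other ways of processing, below 1 under 3 of them. At day 2 it was 1.70-fold higher than at day 0 in knockdown cells and 3.61-fold higher in control cells, and in control cells 0.99 on the log2 scale after cyclic loess normalization. Its other probe read 39.9, 51.9 and 35.9 on the first 3 of these arrays and did not clear background on the last.

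Pde7a encodes a cyclic AMP phosphodiesterase that rolipram, the PDE4 inhibitor, does not block. It read 3379 in knockdown cells at day 2, 2255 in control cells at day 2, 2415 in knockdown cells at day 0 and 1589 in control cells at day 0. Knockdown was above control on both days by nearly the same factor, a log2 difference of 0.58 at day 2 and 0.60 at day 0. Day 2 was above day 0 by 1.40-fold in knockdown cells and 1.42-fold in control cells. The other probe, of transcript NM_001122759, gave 0.65 and 0.53 for knockdown against control. None of these passes 2-fold, and all but the differences between the days at that probe exceed 2 software errors. Pde8a, of the phosphodiesterase group that isobutylmethylxanthine does not inhibit, was not well above background on any array, with signals between 6.96 and 11.5, and no fold is given.

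Rgs2 encodes an RGS protein that acts mainly on Gq and also binds adenylyl cyclases. It read 235008 in knockdown cells at day 2, 154925 in control cells at day 2, 8871 in knockdown cells at day 0 and 15696 in control cells at day 0. As for Pde4d, knockdown was the higher at day 2 and the lower at day 0. Rgs2 was 26.5-fold higher at day 2 than at day 0 in knockdown cells and 9.87-fold higher in control cells. Against control, its knockdown reading was 1.52-fold higher on day 2 and 1.77-fold lower on day 0. The other probe read 13927, 7486, 204 and 517 in the same order, which gave 68.4-fold and 14.5-fold higher values at day 2 in knockdown and control cells. At that probe the knockdown reading was 1.86-fold above control on day 2 and 2.54-fold below it on day 0. No spot on any array was saturated.

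Rgs16, whose protein acts on Gi and Gq alpha subunits, has 1 probe. It read 844 in knockdown cells at day 2, 1584 in control cells at day 2, 4765 in knockdown cells at day 0 and 3848 in control cells at day 0. Both day 2 arrays were below both day 0 arrays, and the knockdown day 2 array was the lowest of all. Rgs16 was 5.65-fold lower at day 2 than at day 0 in knockdown cells and 2.43-fold lower in control cells. The knockdown reading was 1.88-fold below control on day 2 and 1.24-fold above it on day 0.

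Rgs4, also a regulator of Gi and Gq, was dim and its probes disagreed. The brighter probe read 127 in knockdown cells at day 2, 142 in control cells at day 2, 192 in knockdown cells at day 0 and 191 in control cells at day 0. The other read 89.1, 106, 124 and 275 in that order. At the brighter probe knockdown and control cells differed by 1.01-fold at day 0, and at the other knockdown was 2.21-fold lower. Day 2 was below day 0 at both probes in both kinds of cell, by 1.34-fold to 2.61-fold.

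Over the 9 genes that could be compared, 4 were at least 2-fold higher and 1 at least 2-fold lower at day 2 than at day 0 in knockdown cells, namely Rgs2, Pde4d, Pde4b and Pde3b, and Rgs16. Over all 19198 compared genes, 5% were higher and 9.09% lower by this size. In control cells 5 were higher, the dim gene Pde3a being the added one, and 1 lower, beside 20.2% and 8.08% of 18657 genes. Among the bright genes alone, 6.17% were higher and 9.24% lower in knockdown cells, and 7.68% and 7.67% in control cells. The sign of the difference between the days was the same in both kinds of cell for all 9 genes, 6 positive and 3 negative, and these comparisons share no array. In knockdown cells Rgs2, Pde4d and Pde4b ranked 14, 17 and 21 from the highest of the 19198 genes. In control cells they ranked 65, 154 and 71 of 18657.

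**Figure D2:**
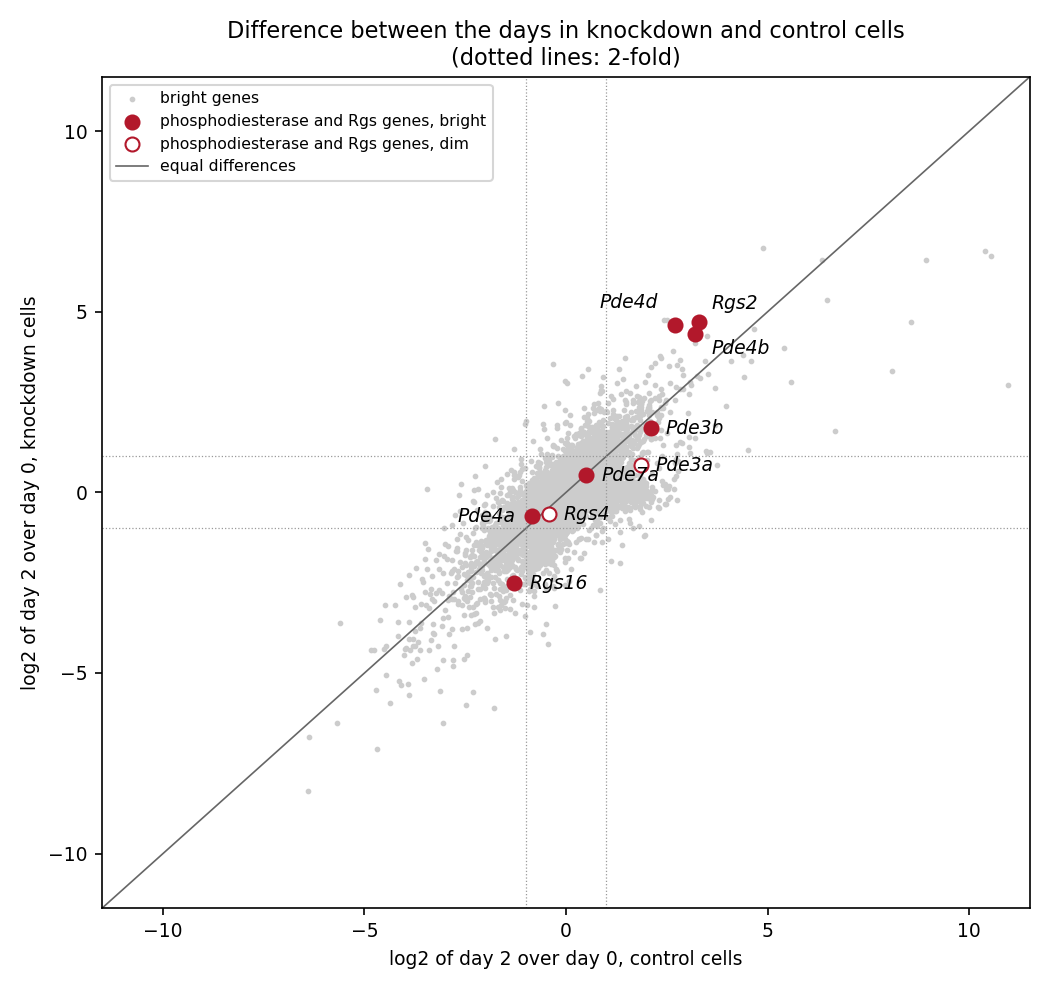
Log2 of day 2 over day 0 in knockdown cells (vertical axis) against the same in control cells (horizontal axis), for the 11394 bright genes in grey and the 9 compared phosphodiesterase and Rgs genes in red, with dim genes open. Rgs2, Pde4d and Pde4b lie far above 0 on both axes and above the line of equal differences, Rgs16 lies below it, and Pde3b and Pde7a lie near it.

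Between knockdown and control cells at day 2, 1 of the 9 genes was at least 2-fold higher and none lower, and 2.89% and 4.13% of all 18561 compared genes were so. Among bright genes these shares were 3.01% and 3.62%. The gene was Pde4b, ranked 127 from the highest. Its log2 difference of 1.84 exceeded 2-fold under each of 9 other ways of processing. Some of these could not change it: the gene passes the filters on dim genes, and none of its spots was marked as an outlier. The lowest was 1.63, the value of its other measured probe, which is the median of 3 with the probe below background. The next were Rgs16 at a log2 difference of -0.91, Pde4d at 0.83, Rgs2 at 0.60 and Pde7a at 0.58, each more than 2 software errors from 0. The median over the 9 genes was 0.13, beside -0.01 over all genes. At day 0, 1 was higher, the dim gene Pde3a, and 1 lower, Pde4d. Over all 19270 compared genes, 18.4% were higher and 4.17% lower. Among bright genes, which leave out Pde3a, these shares were 5.63% and 3.05%. The share of higher calls over all genes at day 0 depended on the scaling: 81.6% of all calls were higher as reported, 45.6% after quantile normalization and 35.9% after cyclic loess, and the median log2 difference of all genes was 0.12 as reported.

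**Figure D3:**
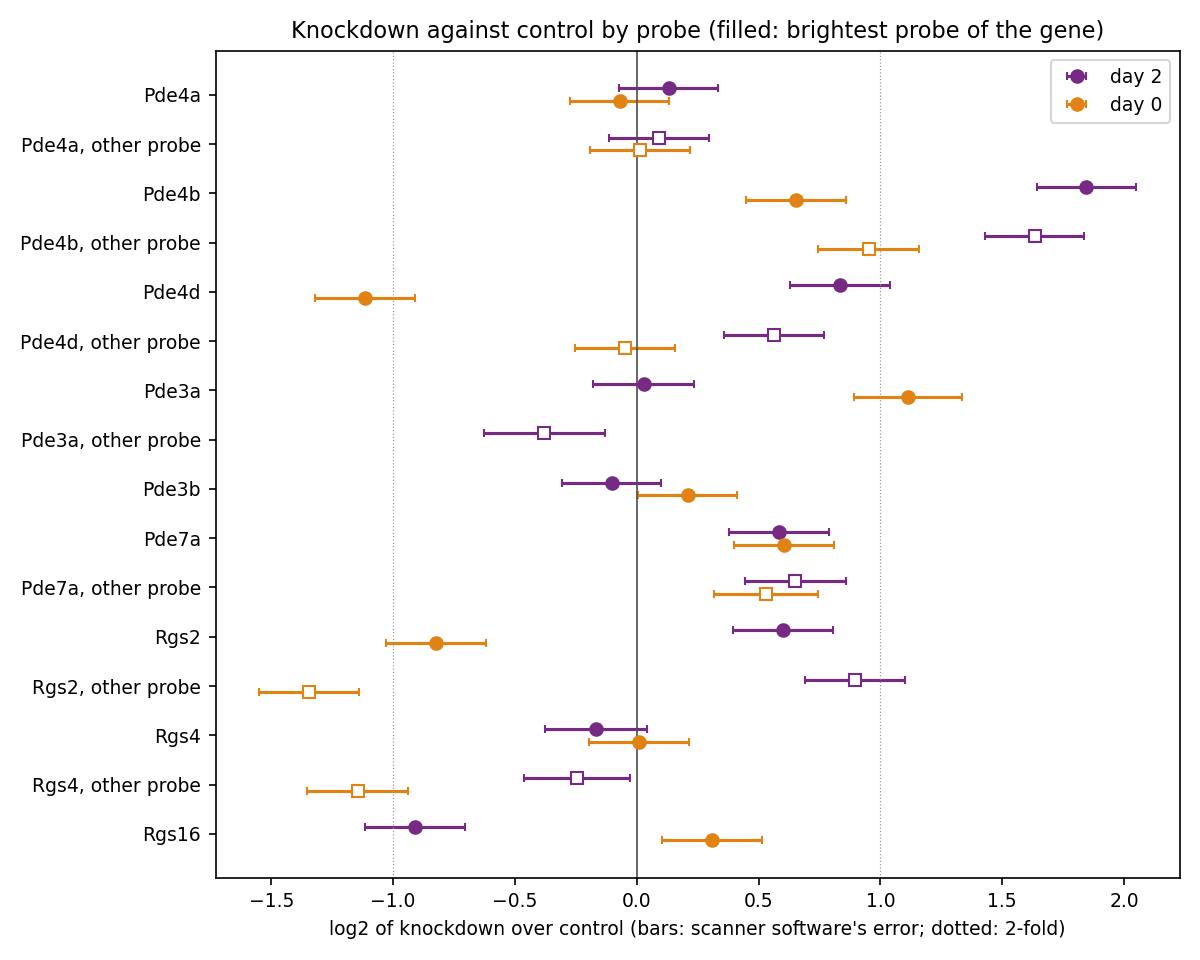
Log2 of knockdown over control at day 2 (purple) and day 0 (orange) for each measured probe, with the scanner software's error as bars. Filled circles are the brightest probe of a gene and open squares other probes. Both Pde4b probes lie beyond 2-fold at day 2. Pde4d and Rgs2 lie above 0 at day 2 and below 0 at day 0 at every probe shown. At day 0 the other Pde4d probe lies within the software's error.

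The knockdown difference at day 2 minus that at day 0 equals the difference between the knockdown and the control response to induction. It was at least 2-fold positive for 3 genes, Pde4d at 1.95, Rgs2 at 1.42 and Pde4b at 1.19 on the log2 scale. It was negative by that size for 2, Rgs16 at -1.22 and the dim gene Pde3a at -1.09. Over all 15465 genes measured on the 4 arrays, 2.85% were positive and 17% negative by that size, and among 11389 bright genes 2.6% and 6.73%. The other probes of the positive genes gave 0.61 for Pde4d, 2.24 for Rgs2 and 0.68 for Pde4b. As the median over all probes, Pde4d was at 1.28. For Pde4b, whose probe below background counts among its 3, that median is the reading of the probe at 0.68. Pde3a was at -0.23 to -1.52 over the other ways of processing. For Pde3b it was -0.31, for Pde4a 0.20 and for Pde7a -0.02, none beyond 2 errors. Rgs4 was at -0.18 at its brighter probe and at 0.90, beyond 2 errors, at the other.

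Rgs2 and Pde4d had the same order of levels, knockdown day 2, control day 2, control day 0 and knockdown day 0, with every step beyond 2 software errors at the brightest probes. Pde4b differed in its day 0 arrays, where knockdown stood above control. Over the 4 arrays Pde4b spanned 33.0-fold, Rgs2 26.5-fold and Pde4d 25.0-fold, and Rgs16 spanned 5.65-fold and Pde3b 4.30-fold. Pde3a spanned 3.68-fold, Pde7a 2.13-fold, Pde4a 1.79-fold and Rgs4 1.52-fold. Neighbours not separated by 2 errors were the knockdown and control arrays of the same day for Pde4a, Pde3b and Rgs4, those of day 0 for Rgs16, those of day 2 for Pde3a, and knockdown day 0 and control day 2 for Pde7a.

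For each gene with a span of at least 4-fold, the 3 bright genes whose log2 profiles over the 4 arrays lay nearest were found by Euclidean distance after centring each gene on its mean. Of 11389 genes, the nearest to Rgs2 was Pde4d and the nearest to Pde4d was Rgs2, at a distance of 0.44. The keratin gene Krt15 lay at 0.46 from Rgs2, and Nfil3, which encodes a transcriptional repressor, at 0.69 from Pde4d. The pair stayed first or next to first in each other's lists under normexp, quantile and cyclic loess processing. With the median over all probes the distance was 1.43, and Pde4d ranked 5 for Rgs2 while Rgs2 ranked 87 for Pde4d. The other Pde4d probe lay nearest to Sphk1, at 0.21, to Per1 and to Nrip1, with Rgs2 at rank 390. The other Rgs2 probe lay nearest to Fam110c, at 0.94, with Pde4d at rank 2 and a distance of 1.32.

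Pde4b lay nearest to the transporter gene Slc2a13, at 0.77, to Pi15 and to Nr4a1, a nuclear receptor gene that cyclic AMP is known to raise. Pde3b lay nearest to Wdr92, to the connexin gene Gja1 and to Rogdi, at 0.19 to 0.24. Rgs16 lay nearest to 9930012K11Rik and to Dscc1 and Gtse1, genes of chromosome cohesion and of the G2 phase, at 0.21 to 0.24. These are likenesses over 4 arrays, given as a description.

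**Figure D4:**
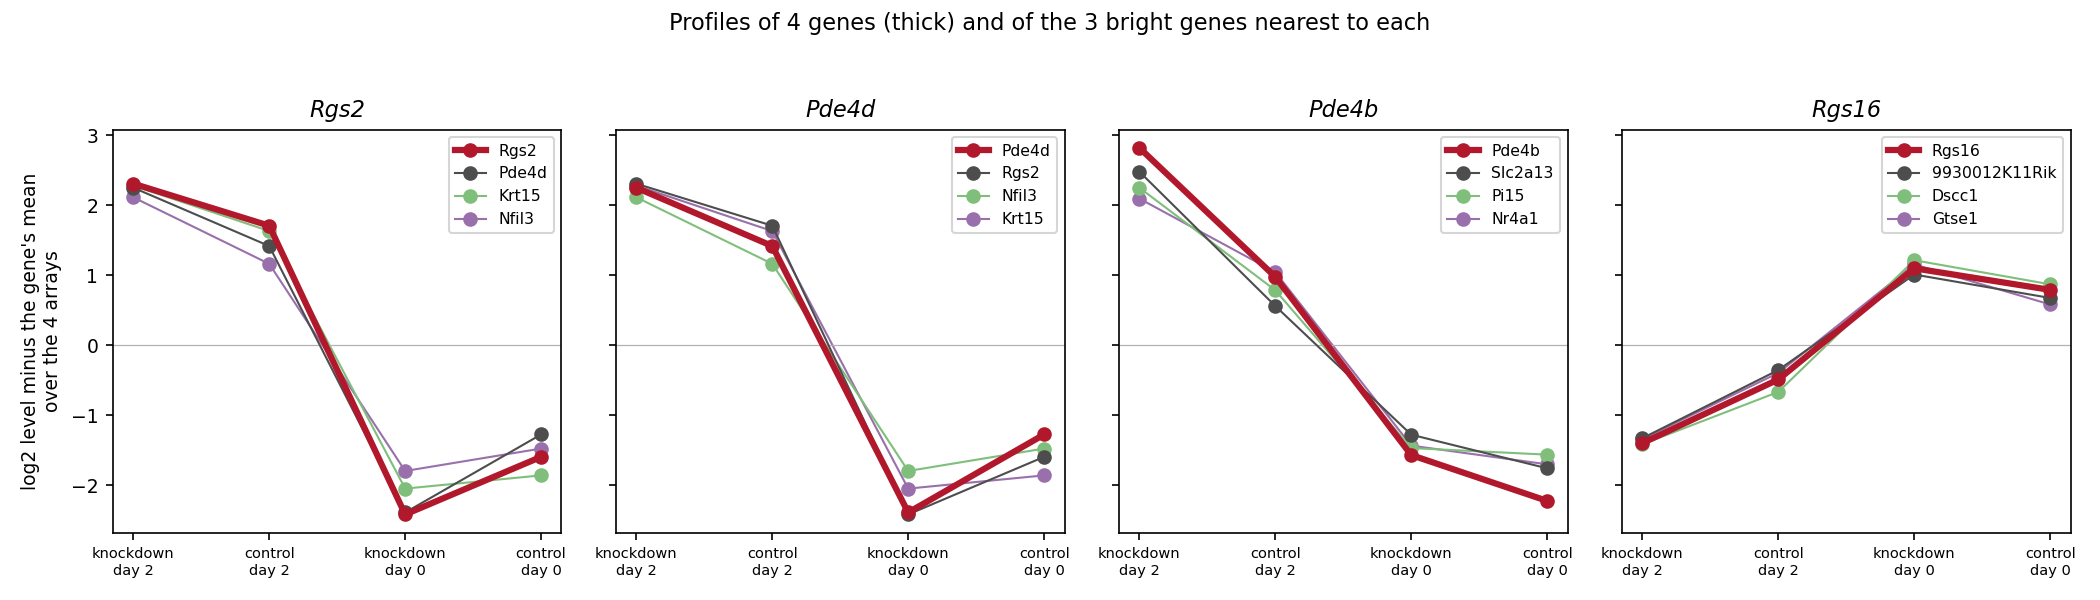
Log2 level on each array minus the gene's mean over the 4 arrays, for Rgs2, Pde4d, Pde4b and Rgs16 (thick red) and the 3 bright genes nearest to each. Rgs2 and Pde4d are lowest on the knockdown day 0 array, Pde4b on the control day 0 array, and Rgs16 and its neighbours are lowest on the knockdown day 2 array.

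The wider families did not move as one. Of 25 listed phosphodiesterase genes, 24 were compared, and at day 2 against day 0 in knockdown cells 5 were higher and 2 lower, beside 5% and 9.09% of all genes, with a median log2 difference of 0.33 beside 0.00. In control cells 13 were higher and 1 lower, beside 20.2% and 8.08%, with a median of 1.17 beside 0.19. Of the 14 bright family genes, however, 5 were higher and 1 lower in either kind of cell. Among all bright genes 6.17% were higher and 9.24% lower in knockdown cells, and 7.68% and 7.67% in control cells. Pde1a, a calcium-activated phosphodiesterase, was 4.99-fold higher at day 2 in knockdown cells and 1.82-fold higher in control cells. Its relative Pde1b was 8.54-fold lower in knockdown cells and 4.72-fold lower in control cells, its signals being 283 (knockdown) and 303 (control) on the day 2 arrays, beside 2418 (knockdown) and 1430.4 (control) on those of day 0. Between knockdown and control cells at day 2, Pde4b was the only bright phosphodiesterase past 2-fold, and the dim genes Pde7b and Pde8b were lower. The measured Pde7b probes gave log2 differences of -1.17 and -0.29. Pde8b did not clear background in knockdown cells at day 2, so its difference is a bound. At day 0, 9 of 24 were higher in knockdown cells and 1 lower, beside 18.4% and 4.17% of all genes. Of the 14 bright ones 2 were higher and 1 lower, beside 5.63% and 3.05% of bright genes.

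Of 21 listed Rgs genes, 16 were compared between the days in knockdown cells and 17 in control cells. In knockdown cells 1 was higher, Rgs2, and 2 lower, Rgs16 and Rgs3. All genes stood at 5% higher and 9.09% lower. In control cells 5 were higher and 4 lower, beside 20.2% and 8.08% of all genes, and among the 10 bright Rgs genes 3 were higher and 2 lower, beside 7.68% and 7.67% of bright genes. Rgs3, a regulator of Gi and Gq, was 5.36-fold lower at day 2 in knockdown cells and 5.48-fold lower in control cells at its brightest probe, while the other measured probe of its 3 gave log2 differences of -0.52 and -0.32. Between knockdown and control cells at day 2 the only Rgs gene past 2-fold was Rgs17, a regulator of Gi and Gz, 2.88-fold higher, with signals of 3099 in knockdown and 1075 in control cells. On day 0 it read 3871 in knockdown and 1158 in control cells.

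**Figure D5:**
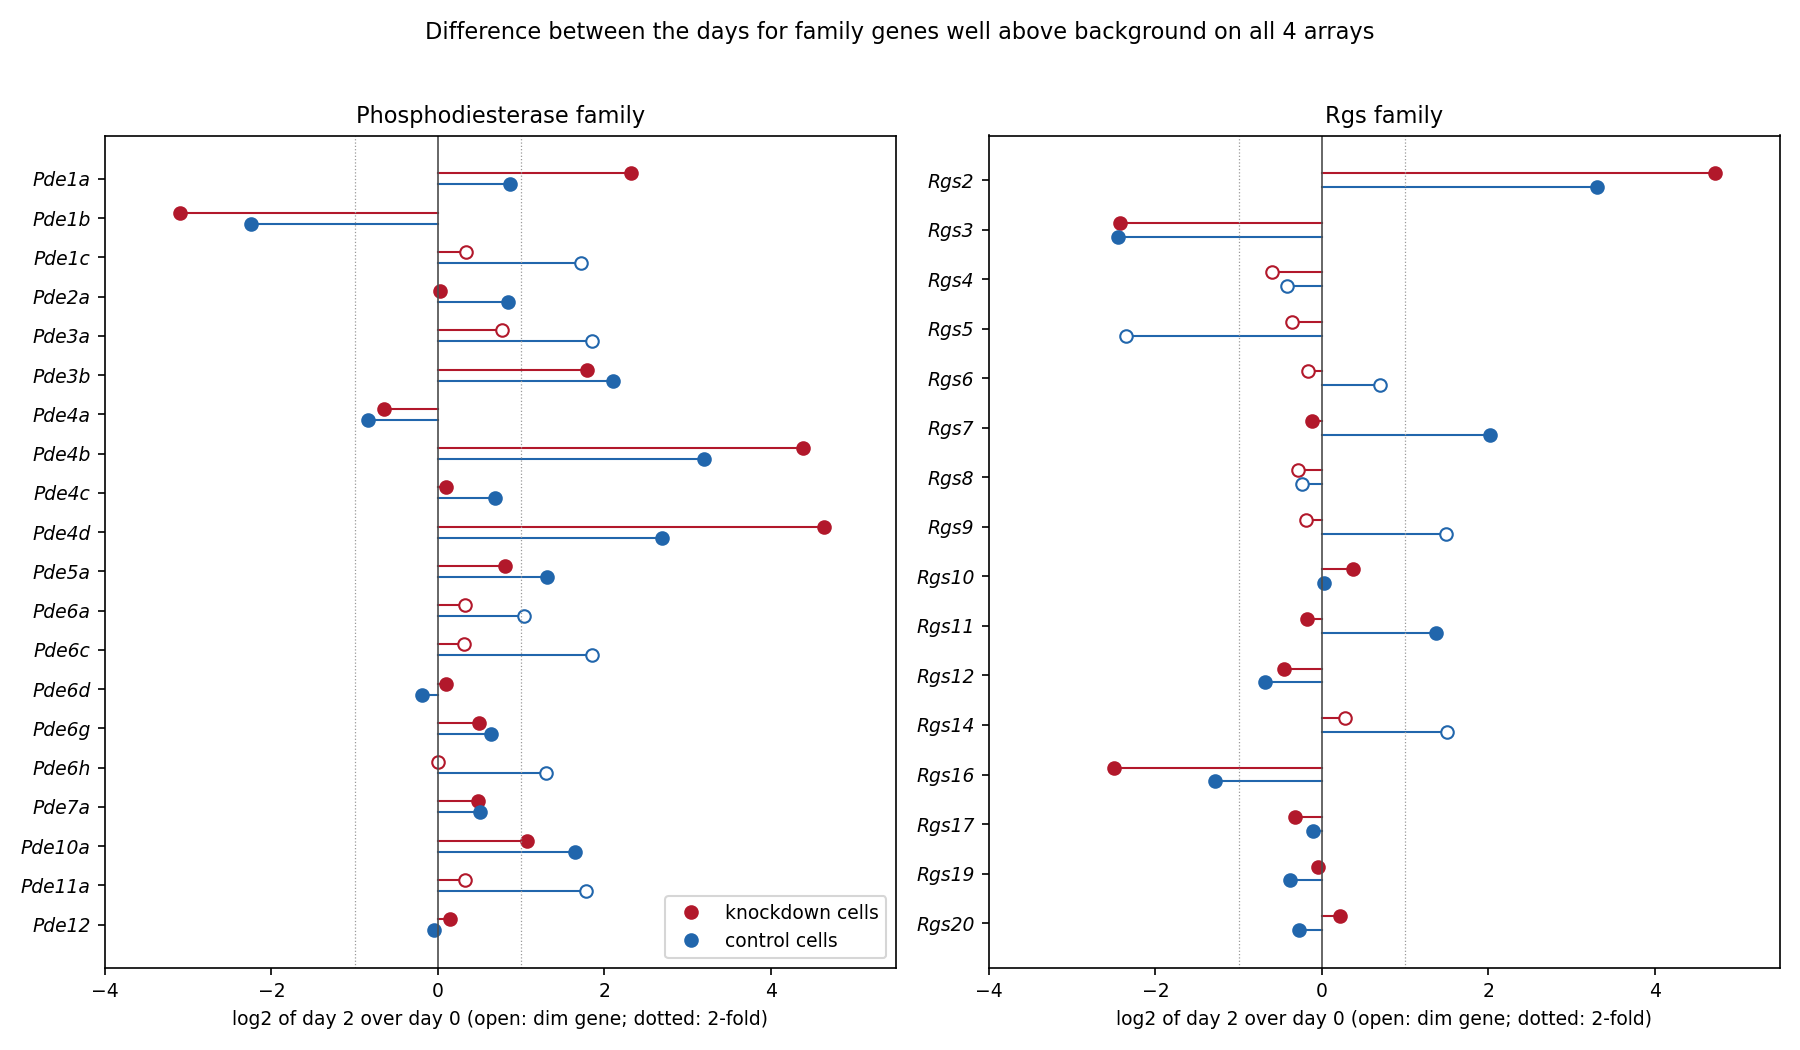
Log2 of day 2 over day 0 in knockdown cells (red) and control cells (blue) for those phosphodiesterase and Rgs genes that every array measured above background, with dim genes open. Pde4b, Pde4d and Rgs2 stand beyond 2-fold to the right in both kinds of cell, Pde1b, Rgs3 and Rgs16 to the left, and several dim genes lie right of 2-fold in control cells.

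The other steps of cyclic AMP signalling were taken from lists of genes, chosen with earlier results of these data known. Among 9 adenylyl cyclases compared in knockdown cells, 1 was higher at day 2 than at day 0 and 1 lower. Over all genes, 5% were higher and 9.09% lower between the days in knockdown cells, and 20.2% and 8.08% in control cells. Between the kinds of cell at day 2 these shares were 2.89% and 4.13%, for this list and those that follow. Adcy7 was 40.0-fold lower in knockdown cells and 17.0-fold lower in control cells, its signals being 39.4 (knockdown) and 57.1 (control) on the day 2 arrays, beside 1579.6 (knockdown) and 968 (control) on those of day 0. Adcy9 was 3.38-fold higher in knockdown cells and 1.59-fold higher in control cells. Adcy3 was the only cyclase past 2-fold between the kinds of cell at day 2, at 2.44-fold higher in knockdown. Of 6 genes for guanylyl cyclases and cyclic GMP kinases compared in knockdown cells, none was higher at day 2 than at day 0 and 1, the dim gene Gucy1a1, was lower. Of 12 G protein alpha subunit genes, Gnao1 alone was past 2-fold between the days in knockdown cells, at 3.38-fold higher and 4.14-fold in control cells, and none differed by 2-fold between knockdown and control cells at day 2.

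Downstream of cyclic AMP, 1 of 9 genes for protein kinase A subunits and inhibitors passed 2-fold between the days in either kind of cell. This was Pkia, which encodes an inhibitor peptide of the kinase, 2.72-fold lower in knockdown cells and 3.01-fold lower in control cells. Of all genes, 9.09% were lower in knockdown cells and 8.08% in control cells. Of 13 anchoring protein genes compared between knockdown and control cells at day 2, 1 was higher and 3 lower, beside 2.89% and 4.13% of all genes. Among the 9 bright ones 1 was higher and 2 lower, beside 3.01% and 3.62% of bright genes. Akap12 was 8.08-fold lower at day 2 in knockdown cells and 6.46-fold lower in control cells, and its day 2 knockdown reading was 3.67-fold below that of control cells. Akap11 was 4.71-fold and 1.93-fold higher at day 2 in knockdown and control cells. Rapgef3, which encodes the exchange factor EPAC1, was 2.77-fold and 2.99-fold lower. Of 12 genes for CREB, its relatives and coactivators, Creb3l1 was 4.35-fold and 4.44-fold lower at day 2, and Crem was higher by 1.13 on the log2 scale in knockdown cells at its brightest probe, with another of its probes at -0.07 on the log2 scale.

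Of 20 listed CREB target genes, 18 were compared in knockdown cells, where 9 were higher at day 2 and 1, Egr1, lower, beside 5% and 9.09% of all genes. In control cells 8 of 17 were higher and 1, Atf3, lower, beside 20.2% and 8.08%. The median log2 difference of this list was 0.94 in knockdown cells beside 0.00 over all genes, and 0.41 in control cells beside 0.19. Nr4a1 was 11.6-fold higher in knockdown cells and 6.71-fold higher in control cells, and Dusp1, which encodes a phosphatase of MAP kinases, 9.43-fold and 7.42-fold higher. Between knockdown and control cells at day 2, 4 of 17 were higher and 0 lower, beside 2.89% and 4.13% of all genes. The list's median was 0.43 beside -0.01 over all genes. These were Ppargc1a, the coactivator PGC1 alpha, at 11.9-fold, Junb at 3.49-fold, Nr4a1 at 2.07-fold and the dim gene Vgf. Many of these genes respond to other signals as well. Of 16 genes for Gs-coupled receptors, 12 were compared between the kinds of cell at day 2. Of these, 2 were lower in knockdown cells, Mc2r, the corticotropin receptor, at 4.60-fold and the dim gene Calcrl. None was higher, beside 4.13% lower and 2.89% higher among all genes.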

How the data were processed

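Total RNA of 4 cultures was labelled with Cy3 and hybridised to Agilent mouse arrays of design 028005, 1 per group. Per the file headers, the scanner software was Agilent Feature Extraction 10.7.3.1. It took off a spatial background and detrended every array but that of knockdown day 0. The deposited processed signals are linear intensity values, not normalised between arrays. Deposited marks of 0 or 1 per spot, of another kind than intensity, give background and outlier calls.

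The log2 signal minus the 75th percentile of its array was the level. Control and outlier spots were left out and repeat spots averaged. Probes were named through their RefSeq accession in a gene table of GRCm38.p6, which matched 27656 probes and left 28025 unmatched. The probe with the highest mean level stands for a gene, and 20956 genes remained. A gene was compared where at least 1 of the 2 arrays was well above background, with the dim side held at no less than the lowest signal well above background there. No test was possible, and a 2-fold difference was called. On simulated data made with the spot error, the rule was tested before use, and the outcome is not given here. Such data hold no spread between cultures or slides, so that test cannot say how the rule fares against either. The 10 genes, which are taken by name, the gene lists and the comparisons were chosen with earlier results of these data known. All 10 genes are named. Of each gene list, up to 4 per direction that passed 2-fold were to be named, largest first; Junb, Vgf and Calcrl, and Akap11, Adcy3 and Rgs17 where they are the only calls, were named after their values were seen. Alternatives were normexp background correction (offset 50), signals without detrending, quantile and cyclic loess normalization (3 iterations), scaling over probes well above background, filters on dim genes, the median of a gene's probes, outlier spots kept and a 1.5-fold size. Software was limma 3.58.1 in R 4.3.3, and pandas 2.3.3, numpy 2.4.6 and matplotlib 3.10.9 in Python 3.11.15.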

Additional observations from a re-analysis of the deposited data

Results flagged for a closer look

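Pde4d and Rgs2 went in opposite directions at the 2 days. Pde4d had a log2 difference of 0.83 between knockdown and control cells at day 2 and of -1.11 at day 0. Rgs2 had 0.60 at day 2 and -0.82 at day 0. With 1 array per group the difference between the days was not tested. The day 0 values use the control array on its own slide, whose part in them was not tested. The sign was the same at the other probe of each gene, with 0.56 and -0.05 for Pde4d, the last within the software's error, and 0.90 and -1.34 for Rgs2.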

How the results depend on the processing

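Of 45 differences of the 9 compared genes, 19 were at least 2-fold, of which 14 stayed so under every alternative, 5 fell below under at least 1, and none changed sign. The 5 were Pde4d at day 0 (-0.58) and the change of Pde4b between the days (0.68), both under the median of probes, and 3 differences of the dim gene Pde3a that use the control day 0 array. Another 2 passed 2-fold under an alternative, Rgs2 at day 0 (-1.08, median of probes) and Rgs4 between the days in control cells (-1.23, cyclic loess). Some alternatives could not change a value. Bright genes pass the filters on dim genes, no probe of these genes was marked as an outlier, and for a gene with 1 probe the median of probes is that probe. The count of genes past the size between knockdown and control cells at day 0 was 2, and 1 after normexp, quantile or cyclic loess processing or among bright genes. At 1.5-fold the counts were 4 at day 2, 5 at day 0 and 8 for the days in knockdown cells, against 1, 2 and 5, and 17.2%, 38.2% and 29.3% of all genes passed that size. Over all genes, the share of calls that were higher was 71.4% for the days in control cells, 36.9% after quantile normalization and 29.9% after cyclic loess, and for the change between the days 14.3%, 44.9% and 57.8%. The median log2 difference of all genes in control cells was 0.19 between the days. No paired analysis was possible because each group has 1 array, and for the same reason the slide could not enter as a block. Repeat spots of a probe scattered by a median SD (log2 ratio) of 0.04 to 0.07 where bright and 0.25 to 0.43 where dim.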
